A study of Mus musculus with 9 samples.

Results

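The genes described here are 8 core components of the adherens junction, chosen by symbol from the 52025 genes of the expression tables: the cadherins Cdh1 and Cdh2, the nectins Nectin1, Nectin2 and Nectin3, the catenins Ctnna1 and Ctnnd1, and Afdn, which encodes afadin. All 8 were found, each on 1 row, and all 8 passed the filter on low values that 15495 genes passed (a mean of at least 1 FPKM, a fragment count scaled to exon length and to library size, on at least 1 of the days). The study tracked ovaries of juvenile Kunming mice over the days on which fluid-filled cavities first appear in the earliest growing follicles. It holds 9 RNA-Seq libraries, 3 each from postnatal days 14, 15 and 16 (PD14, PD15 and PD16). Age is the only labelled difference between the groups, and no treatment or genotype is labelled. Granulosa cells, the somatic cells around the oocyte, are named as the RNA source beside a tissue entry of ovary, whereas the study's methods describe whole ovaries.

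Adherens junctions hold neighbouring cells together. Cadherins on adjoining membranes bind one another in the presence of calcium, and their cytoplasmic tails recruit p120-catenin, beta-catenin and, through the latter, alpha-catenin, which links the complex to actin. Nectins are immunoglobulin-like adhesion molecules that bind each other across the intercellular gap without calcium and anchor to actin through afadin. In the ovarian follicle such contacts join granulosa cells to each other and to the oocyte.

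The libraries held about 20366700 to 28723300 mapped fragments each, as recovered from the step size of the low values. The markers of several ovarian cell types were all well above the detection limit: the mean level over the 9 libraries was 2152 FPKM for Inha and 221 FPKM for Amh (granulosa), 367 FPKM for Padi6 and 342 FPKM for Zp3 (oocyte), 1449 FPKM for Hsd3b1 (theca and interstitium) and 170 FPKM for Col3a1 (stroma). The libraries therefore carried transcripts of oocytes, theca and stroma as well as granulosa cells, and in such tissue fewer cells of a type and less RNA per cell cannot be told apart. No pair of libraries held identical values, and the median change of all tested genes lay between -0.0133 and 0.00934 on the log2 scale over the comparisons and scalings tried.

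Over these 3 days 2 nectin genes changed in opposite directions, and no cadherin or catenin of the set passed the test. Nectin1 was 33.7% higher on PD15 and 33.1% higher on PD16 than on PD14, and Nectin2 was lower on PD16 than on PD14. Afadin transcript was higher in every PD15 and PD16 library than in every PD14 library but missed the threshold. The other 5 genes gave changes whose 95% intervals included 0 in all 3 comparisons.

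**Figure D1:**
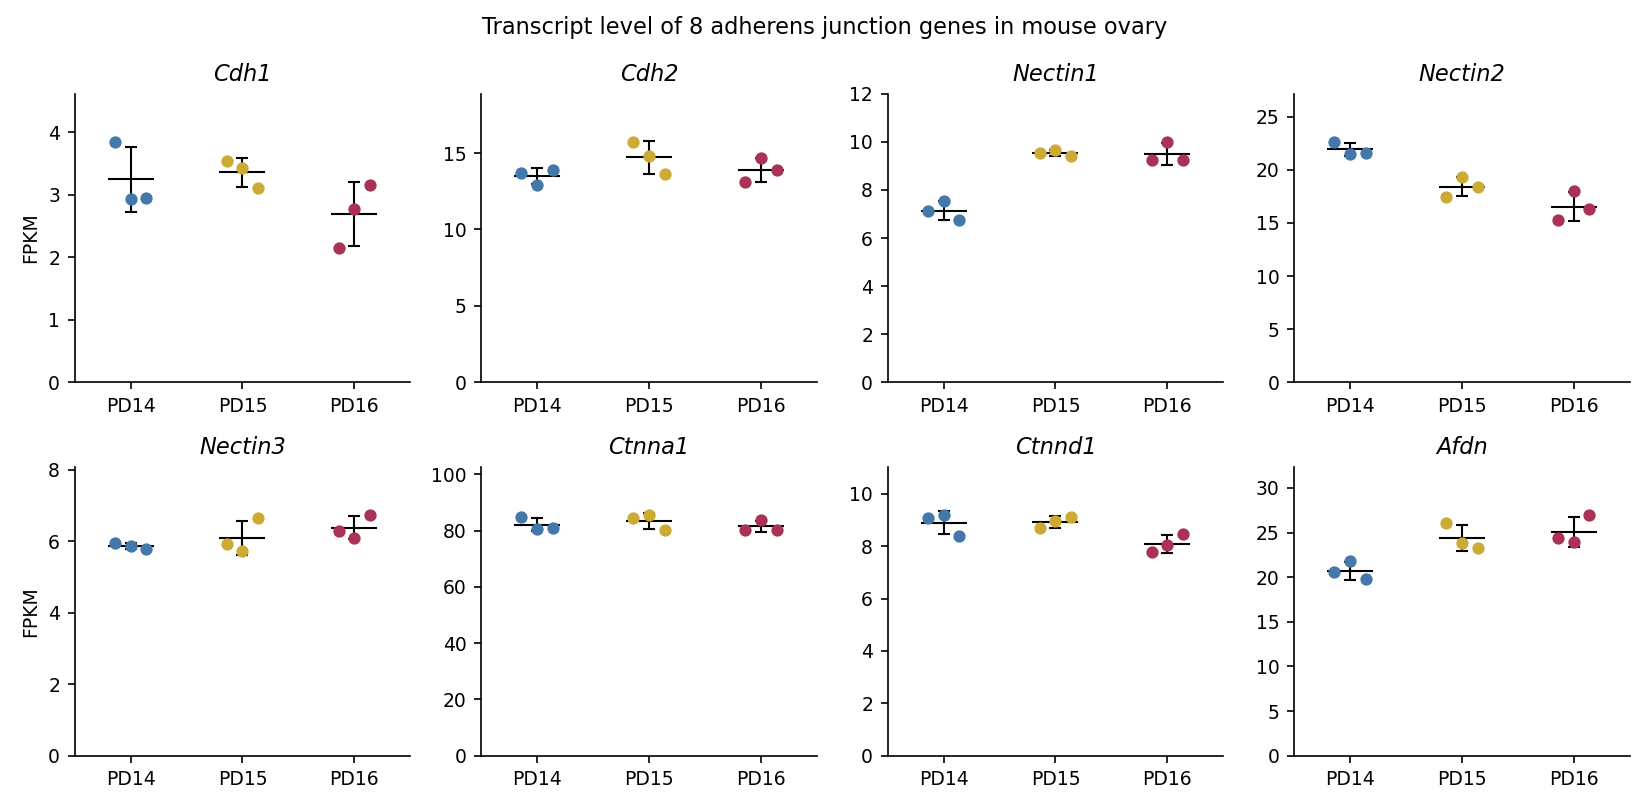
Transcript level (FPKM, linear axis from 0) of each gene on PD14, PD15 and PD16. Points are single libraries, the wide bar is the mean of the 3 libraries of a day and the whiskers are 1 SD; Nectin1 libraries lie at 6.76 to 7.53 FPKM on PD14 and at 9.24 to 10.0 FPKM on PD16, and Nectin2 libraries at 21.5 to 22.7 and 15.3 to 18.0 FPKM.

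FPKM values are scaled to the exon length of a gene, so levels of different genes can be set side by side approximately. Which transcripts of each gene were expressed is not shown, so places close in the order are not secured. Ctnna1 was by far the most abundant, with a mean of 82.3 FPKM over the 9 libraries and no library under 80.1 FPKM. Afdn (23.4 FPKM), Nectin2 (19.0 FPKM) and Cdh2 (14.0 FPKM) followed, then Nectin1 (8.73 FPKM), Ctnnd1 (8.63 FPKM), Nectin3 (6.12 FPKM) and Cdh1 (3.10 FPKM). Neighbours in the middle of this order changed places with age. On PD14 the libraries of Nectin2 and Afdn overlapped (21.5 to 22.7 against 19.7 to 21.8 FPKM), whereas on PD16 the levels of Afdn lay above those of Nectin2 (23.9 to 26.9 against 15.3 to 18.0 FPKM). Nectin1 likewise lay below Ctnnd1 on PD14 (6.76 to 7.53 against 8.39 to 9.18 FPKM) and above it on PD16 (9.24 to 10.0 against 7.77 to 8.46 FPKM). The level of Ctnnd1, and so its place in this order, is uncertain, since 61.2% of its exon bases also belong to another gene model. The ends of the order were stable, since Ctnna1 was the highest and Cdh1 the lowest of the 8 in each library.

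Cdh1 (ENSMUSG00000000303, chr8:106603351-106670246, plus strand, GRCm38) encodes E-cadherin, the classical cadherin of epithelia and also of oocytes. Its level was 3.85, 2.94 and 2.95 FPKM in the PD14 libraries, 3.54, 3.44 and 3.10 FPKM in the PD15 libraries, and 2.15, 2.77 and 3.16 FPKM in the PD16 libraries. The days overlapped, although the lowest level of all was in a PD16 library. The log2 change was 0.04 at PD15 against PD14 (95% interval -0.23 to 0.31; limma adjusted p = 0.903) and -0.20 at PD16 against PD14 (-0.47 to 0.07; adjusted p = 0.343). Leaving out 1 library gave PD16 changes from -0.295 to -0.0933, the smallest without PD16 replicate 1 (-0.09) or PD14 replicate 1 (-0.10). Cdh1 rested on 234 to 432 fragments per library, the fewest of the 8 genes, and its coefficient of variation between libraries was 16.1% on PD14, 6.74% on PD15 and 19.0% on PD16, beside a counting error of 4.81% to 6.54%. Its intervals were the widest of the 8.

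Cdh2 (ENSMUSG00000024304, chr18:16588877-16809246, minus strand) encodes N-cadherin, the main cadherin of granulosa cells. It stood at 13.7, 12.9 and 13.9 FPKM on PD14, at 15.8, 14.8 and 13.6 FPKM on PD15 and at 13.1, 14.7 and 13.9 FPKM on PD16, and every pair of days overlapped. Its log2 change from PD14 was 0.12 on PD15 (-0.03 to 0.27; limma adjusted p = 0.455) and 0.04 on PD16 (-0.11 to 0.19; adjusted p = 0.776). N-cadherin transcript thus exceeded E-cadherin transcript in each library, and the ratio of Cdh1 to Cdh2 FPKM ran from 0.164 to 0.281. The log2 of that ratio was -2.07 ± 0.210 (SD, n = 3) on PD14, -2.13 ± 0.0229 on PD15 and -2.38 ± 0.237 on PD16. In exact two-sided permutation tests of 3 libraries against 3, whose smallest possible p is 0.1, PD15 against PD14 gave p = 0.8 and both comparisons with PD16 gave p = 0.2.

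Nectin1 (ENSMUSG00000032012, chr9:43743984-43807461, plus strand) encodes nectin-1, which prefers to bind nectin-3 on the opposing cell. Its level was 7.12, 7.53 and 6.76 FPKM on PD14, 9.55, 9.66 and 9.42 FPKM on PD15, and 9.24, 10.0 and 9.24 FPKM on PD16. Every library of the later days lay above every PD14 library, and PD15 and PD16 overlapped. The mean rose from 7.14 ± 0.389 (SD, n = 3) to 9.54 ± 0.118 FPKM on PD15, a gain of 33.7%, and stood at 9.50 ± 0.445 FPKM on PD16. The log2 change was 0.37 with an SE of 0.0568 at PD15 against PD14 (limma adjusted p = 0.0341) and 0.37 at PD16 against PD14 (adjusted p = 0.0148), against -0.01 between PD16 and PD15 (-0.13 to 0.12; adjusted p = 0.975). The PD15 call sits close to the threshold: it was lost in 6 of the 9 fits that left out 1 library, namely any one of the PD14 or PD15 libraries, where the adjusted p ran from 0.0504 to 0.130. It was also lost with the values rescaled to a common total (TPM; adjusted p = 0.0966), without the filter (0.0652) and when PD16 was left out of the fit (0.0696). The PD16 difference missed the threshold when PD14 replicate 3 (adjusted p = 0.0576) or PD16 replicate 1 (0.0512) was left out and on the TPM scale (0.0553).

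Nectin2 (ENSMUSG00000062300, chr7:19716644-19750483, minus strand) encodes nectin-2, a nectin of epithelial and other cells that also serves as a ligand for immune cell receptors. It measured 22.7, 21.5 and 21.6 FPKM on PD14, 17.5, 19.3 and 18.4 FPKM on PD15, and 15.3, 18.0 and 16.4 FPKM on PD16. The PD14 libraries lay above all later ones, while PD15 and PD16 overlapped. Its mean was 21.9 ± 0.642 (SD, n = 3), 18.4 ± 0.899 and 16.5 ± 1.35 FPKM on the successive days. Relative to PD14 the log2 change was -0.24 with an SE of 0.0667 on PD15, which missed the threshold (limma adjusted p = 0.147), and -0.39 on PD16, which passed it (-0.54 to -0.24; adjusted p = 0.0203). Between PD14 and PD16 the mean fell by 24.6%, and at PD16 against PD15 the log2 change was -0.15 (-0.30 to 0.00; adjusted p = 0.358). It was called in each of the 10 alternative settings that kept all libraries of both days (adjusted p from 0.0134 to 0.0487) and lost without PD14 replicate 1 (0.0664), PD14 replicate 3 (0.0690) or PD16 replicate 1 (0.0689). An antisense gene, Gm20512, shares 135 bases of Nectin2 exon and was listed at 0 to 0.330 FPKM, and whether fragments were counted by strand is not given in the sources used here.

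Nectin3 (ENSMUSG00000022656, chr16:46387706-46498525, minus strand) encodes the third nectin of the set, the preferred partner of nectin-1. Levels were 5.97, 5.87 and 5.79 FPKM on PD14, 5.92, 5.72 and 6.65 FPKM on PD15, and 6.29, 6.10 and 6.74 FPKM on PD16. The PD16 libraries were all higher than the PD14 libraries, but by little: the log2 change was 0.10 (-0.04 to 0.25; limma adjusted p = 0.390). At PD15 against PD14 it was 0.04 (-0.10 to 0.19; adjusted p = 0.804). Nectin4, the remaining nectin gene, was at most 0.131 FPKM in any library and was not tested.

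Since 1 nectin rose and another fell, the summed level of Nectin1 to Nectin3 differed less from PD14, in percent, than Nectin1 or Nectin2 did, going from 34.9 ± 0.790 FPKM (SD, n = 3) on PD14 to 34.0 ± 0.935 on PD15 and 32.4 ± 1.63 on PD16. The make-up of that sum, and the ratio of Nectin1 to Nectin2, are descriptions chosen after the values were seen. Nectin2 supplied 62.8% ± 1.02 of it on PD14, 54.0% ± 1.40 on PD15 and 51.0% ± 1.60 on PD16. Nectin1 supplied 20.4% ± 1.01, 28.0% ± 0.853 and 29.3% ± 0.704, and Nectin3 16.8% ± 0.124, 17.9% ± 1.38 and 19.7% ± 1.58. The ratio of Nectin1 to Nectin2 FPKM was 0.312 to 0.351 in the PD14 libraries, 0.501 to 0.546 in the PD15 libraries and 0.557 to 0.604 in the PD16 libraries. On the log2 scale its mean was higher by 0.67 on PD15 and by 0.82 on PD16 than on PD14, that is 1.60-fold and 1.77-fold. A ratio of genes within 1 library does not depend on how that library was scaled, and leaving out any library kept the PD16 difference between 0.79 and 0.88. Its exact two-sided permutation p was 0.1 in each comparison, the smallest that 3 libraries against 3 allow, which is no independent support for a ratio picked in this way.

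**Figure D2:**
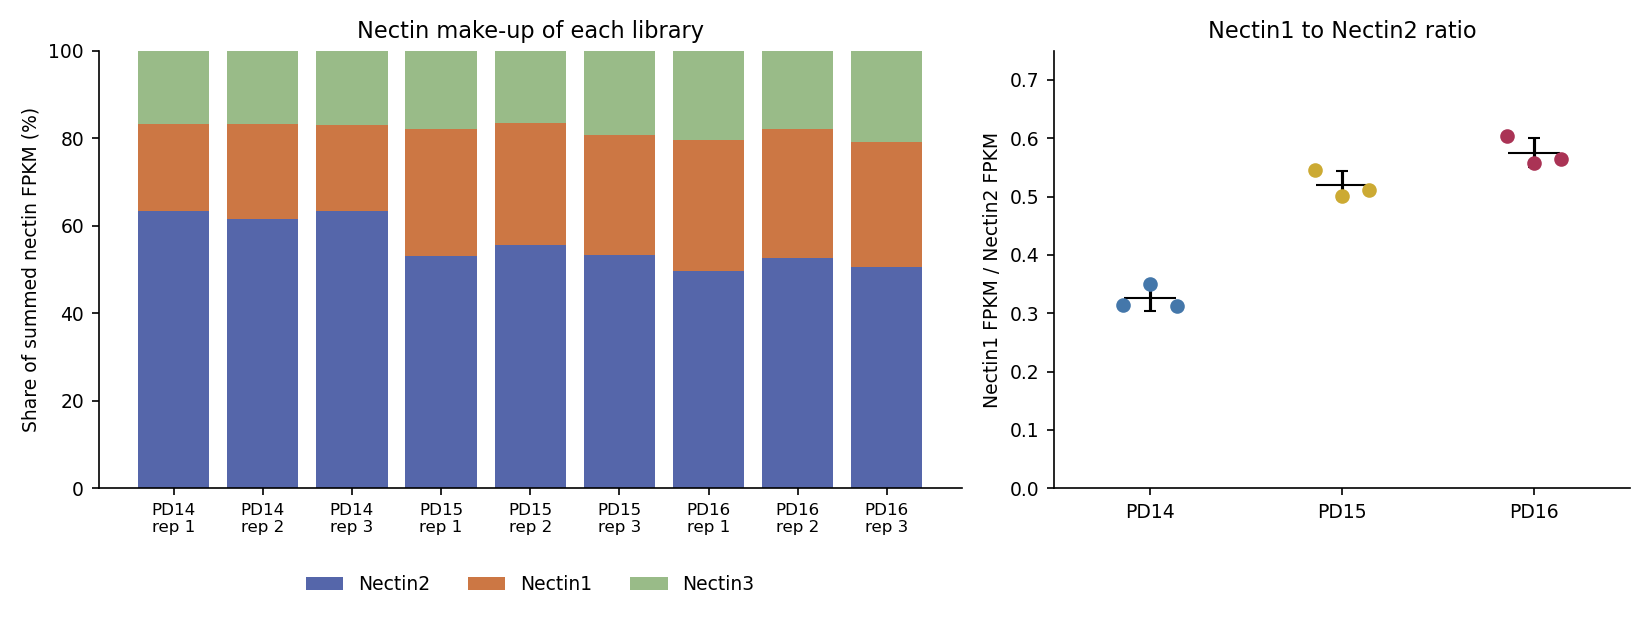
Left, share of the summed FPKM of Nectin1, Nectin2 and Nectin3 (percent) in each of the 9 libraries. Right, ratio of Nectin1 to Nectin2 FPKM by day, with single libraries as points, the mean of 3 libraries as a bar and 1 SD as whiskers; the ratio lies at 0.312 to 0.351 on PD14 and at 0.557 to 0.604 on PD16.

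Afdn (ENSMUSG00000068036, chr17:13760539-13906150, plus strand) encodes afadin, the scaffold that ties nectin tails to actin. Its level was 20.6, 21.8 and 19.7 FPKM on PD14, 26.0, 23.8 and 23.2 FPKM on PD15, and 24.3, 23.9 and 26.9 FPKM on PD16. No later library reached down to the PD14 range, and PD15 and PD16 overlapped. The mean was 20.7 ± 1.01 (SD, n = 3), 24.4 ± 1.48 and 25.1 ± 1.65 FPKM, 17.8% above PD14 on PD15 and 21.2% above it on PD16. The log2 change was 0.23 on PD15 (0.07 to 0.38; limma adjusted p = 0.172) and 0.26 on PD16 (0.11 to 0.42; adjusted p = 0.0598), so that neither passed after adjustment over 15495 genes. Tcte2 on the opposite strand, at 3.09 to 4.07 FPKM, shares 221 bases of Afdn exon.

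The RefSeq promoter table (GRCm38.p6) held entries for 2 of the 3 genes whose PD14 libraries overlapped with neither later day (Nectin1, Nectin2 and Afdn), namely Nectin2 and Afdn. Their upstream sequences are shown, 5′ to 3′ on the gene's strand and ending just before the start site, because the levels of these genes moved in opposite directions between PD14 and PD16, Nectin2 past the threshold and Afdn short of it. The Nectin2 window spans chr7:19749574-19749823 (minus strand, 250 bases), which lies upstream of its main coding transcript and in an intron of a longer non-coding one. The Afdn window spans chr17:13760291-13760538 (plus strand, 248 bases), ends where the annotated first exon begins and overlaps at its upstream end an exon of Tcte2. Capitals mark matches on either strand to CACCTG (the E-box bound by Snail and Zeb repressors of E-cadherin) or GGGCGG (the GC box), and no match overlaps another.
Nectin2: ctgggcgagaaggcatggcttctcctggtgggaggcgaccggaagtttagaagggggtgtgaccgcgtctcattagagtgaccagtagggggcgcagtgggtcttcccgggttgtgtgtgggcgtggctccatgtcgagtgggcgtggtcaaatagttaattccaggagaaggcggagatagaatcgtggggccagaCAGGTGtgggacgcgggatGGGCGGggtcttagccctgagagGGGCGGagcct
Afdn: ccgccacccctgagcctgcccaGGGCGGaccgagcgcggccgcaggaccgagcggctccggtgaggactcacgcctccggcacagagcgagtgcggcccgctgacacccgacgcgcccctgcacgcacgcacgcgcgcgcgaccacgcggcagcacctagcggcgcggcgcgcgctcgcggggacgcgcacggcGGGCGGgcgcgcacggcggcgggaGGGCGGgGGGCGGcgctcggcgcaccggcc

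The Nectin2 window held 1 E-box of this form and 2 GC boxes, with 62.0% G or C and 16 CpG. The Afdn window held no such E-box and 4 GC boxes, with 82.7% G or C and 50 CpG. Of 32851 mouse promoters of 250 bases, 17.2% held the E-box and 32.7% the GC box on either strand, and the medians were 52.4% G or C and 6 CpG. Also searched on both strands were the CCAAT box, spelled by its name, the TATA box in the form TATAAA, and the NR5A nuclear receptor site in the form CAAGGTCA. None of these letters occurred in either window, against 33.9%, 12.4% and 1.33% of all promoters. A match is a description of the letters and not a binding site.

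Ctnna1 (ENSMUSG00000037815, chr18:35118859-35254779, plus strand) encodes alpha-E-catenin, the actin link of the cadherin complex. It stood at 84.9, 80.5 and 81.0 FPKM on PD14, at 84.4, 85.5 and 80.1 FPKM on PD15 and at 80.1, 83.9 and 80.4 FPKM on PD16. All days overlapped within a narrow band. The log2 change was 0.02 at PD15 against PD14 (-0.11 to 0.15; limma adjusted p = 0.899) and -0.01 at PD16 against PD14 (-0.14 to 0.12; adjusted p = 0.927). With 10599 fragments or more in every library, it was the most precisely counted of the 8.

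Ctnnd1 (ENSMUSG00000034101, chr2:84600071-84650765, minus strand) encodes p120-catenin, which keeps cadherins at the membrane. Levels were 9.09, 9.18 and 8.39 FPKM on PD14, 8.68, 8.96 and 9.12 FPKM on PD15, and 7.77, 8.05 and 8.46 FPKM on PD16. The PD16 libraries lay below the PD15 libraries without overlap, and PD14 overlapped both. The log2 change was 0.00 at PD15 against PD14 (limma adjusted p = 0.977), -0.12 at PD16 against PD14 (-0.25 to 0.01; adjusted p = 0.236) and -0.13 at PD16 against PD15 (-0.25 to 0.00; adjusted p = 0.354). The Ctnnd1 values are uncertain, because 4482 bases of its exons (61.2%) also belong to the gene model Gm28635 on the same strand, which was listed at 0 in every library, and how shared fragments were assigned is not given in the sources used here.

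**Figure D3:**
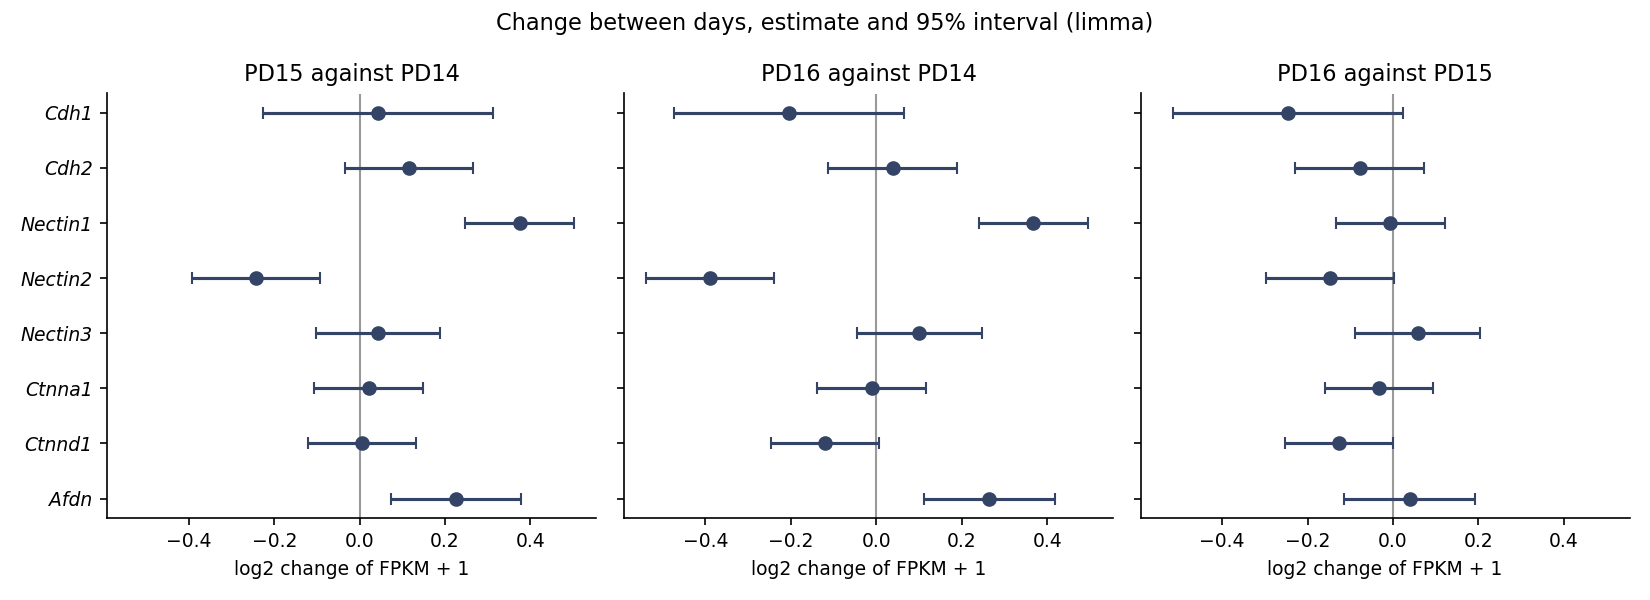
Change of log2(FPKM + 1) of each gene in the 3 comparisons (horizontal axis, log2 units), with the limma estimate as a point and its 95% interval, unadjusted for the number of genes, as a line. Nectin1 lies at 0.37 and Nectin2 at -0.39 for PD16 against PD14, while the intervals of Cdh1, Cdh2, Nectin3 and Ctnna1 cross 0 in all panels.

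Counted together, 1 of the 8 genes (Nectin1) passed at PD15 against PD14, where 0.678% of all 15495 tested genes did. At PD16 against PD14, 2 of 8 passed (Nectin1 higher, Nectin2 lower), where 4.25% of tested genes did. Between PD16 and PD15 limma called 0 of 8, against 0.729% of all genes, and the adjusted p ran from 0.354 to 0.975. None of the 8 had an unadjusted p under 0.05 in that comparison, beside 14.1% of all tested genes. The F test for any difference among the 3 days called 2 of 8, again Nectin1 (adjusted p = 0.0191) and Nectin2 (0.0384), with Afdn at 0.0936, against 3.03% of all genes. That count fell to 1 or 0 in 4 other settings and in 8 of the 9 fits that left out 1 library, all but the one without PD16 replicate 2. The libraries of the 2 days did not overlap for 3 of 8 genes at PD15 against PD14 (20.6% of all tested genes), for 4 of 8 at PD16 against PD14 (28.5%) and for 1 of 8 at PD16 against PD15 (19.6%). The median size of the change was 0.08, 0.16 and 0.07 on the log2 scale in these comparisons, beside 0.09, 0.12 and 0.09 over all tested genes. The calls all belong to the nectins. The comparisons share libraries, so their counts are not independent.

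A permutation test of each gene alone, exact over the 280 ways to divide 9 libraries into 3 days, gave unadjusted p = 0.00714 for Nectin2, 0.0179 for Afdn, 0.0357 for Nectin1 and 0.0714 for Ctnnd1, and from 0.214 to 0.582 for the other 4 genes. The smallest value this test can give is 0.00357. Differences among days took up 94.1% of the variation of Nectin1 over the 9 libraries, 86.3% of that of Nectin2 and 75.8% of that of Afdn, compared with 12.7% for Ctnna1. Across the 9 libraries the correlation of log2(FPKM + 1) was 0.85 between Nectin1 and Afdn, -0.79 between Nectin1 and Nectin2 and -0.86 between Nectin2 and Afdn, which describes libraries that share their days.

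For the 2 called genes, the 5 other tested genes whose log2 levels were most alike over the 9 libraries were listed. For Nectin1 these were Hnrnpll, an RNA-binding splicing regulator (r = 0.96), Slf1 (0.96), the non-coding RNA 2610020C07Rik (0.94), Chrdl1, an inhibitor of bone morphogenetic proteins (0.94), and the processed pseudogene Gm4535 (0.93). Chrdl1 moved from 2.15 FPKM on PD14 to 3.25 on PD15 and 3.88 on PD16. For Nectin2 they were Vps37d, a subunit of an endosomal sorting complex (r = 0.99), the tubulin Tubb4a (0.97), Pacsin3 (0.97), the pyruvate dehydrogenase kinase Pdk2 (0.97) and Zc3hav1, an antiviral RNA-binding protein (0.97). Vps37d moved from 12.6 to 10.2 and 9.12 FPKM. These are the highest correlations among all tested genes outside the set, each over 9 libraries that share days, and carry no test.

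None of the wider machinery around these genes was called. Of 80 further genes in 6 lists, 54 passed the filter on low values, and limma called 0 higher and 0 lower in each comparison. An unadjusted p under 0.05 was found for 5 of the 54 at PD15 against PD14, 12 at PD16 against PD14 and 4 at PD16 against PD15, that is 9.26%, 22.2% and 7.41%, beside 14.7%, 22.8% and 14.1% of all tested genes. The median log2 change of the 54 was 0.01, -0.01 and -0.02, against 0.01 in each comparison over all tested genes.

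Among the 4 tested of 21 other cadherins, Cdh5, the cadherin of endothelium, went from 27.1 ± 1.25 FPKM (SD, n = 3) on PD14 to 23.9 ± 0.694 on PD16 (log2 change -0.17; limma adjusted p = 0.0988), Cdh11 from 19.8 to 18.3 FPKM and Cdh3 from 5.86 to 5.37 FPKM. All 4 had a lower mean on PD16, with a median log2 change of -0.14, and 1 had an unadjusted p under 0.05. Of the other catenins, with 6 of 8 tested, Ctnnb1, which encodes beta-catenin, was the most abundant gene of the 6 lists at 130 ± 5.98, 134 ± 6.41 and 142 ± 14.5 FPKM (log2 change 0.11 on PD16; adjusted p = 0.456). Pkp4 measured 12.4 and 12.9 FPKM on PD14 and PD16, and Jup, plakoglobin, 10.1 and 8.46 FPKM (log2 change -0.23; adjusted p = 0.142). Of the nectin-like molecules and Nectin4, with 3 of 6 tested, Cadm4 stood at 11.2 and 9.16 FPKM, Pvr at 4.43 and 4.43 FPKM, and Cadm1 at 2.86 and 2.92 FPKM.

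All 28 plaque proteins and actin linkers were tested, and their median log2 change was -0.01 at PD16 against PD14, with a range from -0.20 to 0.25. Rap1b, a small GTPase upstream of afadin, was at 59.3 and 58.9 FPKM, the actin crosslinker Actn4 at 54.0 and 54.9 FPKM, and Ablim1 at 38.4 and 36.4 FPKM. Among desmosome genes, with 4 of 8 tested, Dsp, desmoplakin, was at 10.8 ± 2.13 and 13.7 ± 0.152 FPKM (log2 change 0.34; limma adjusted p = 0.182), Pkp2 at 4.45 and 4.44 FPKM and Dsc2 at 2.34 and 2.29 FPKM. All 9 genes for E-cadherin repressors and turnover were tested: the sheddase Adam10 stood at 49.8 and 53.3 FPKM, and the repressor Snai2 at 13.5 ± 1.61 and 16.4 ± 2.18 FPKM (log2 change 0.26; adjusted p = 0.202).

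**Figure D4:**
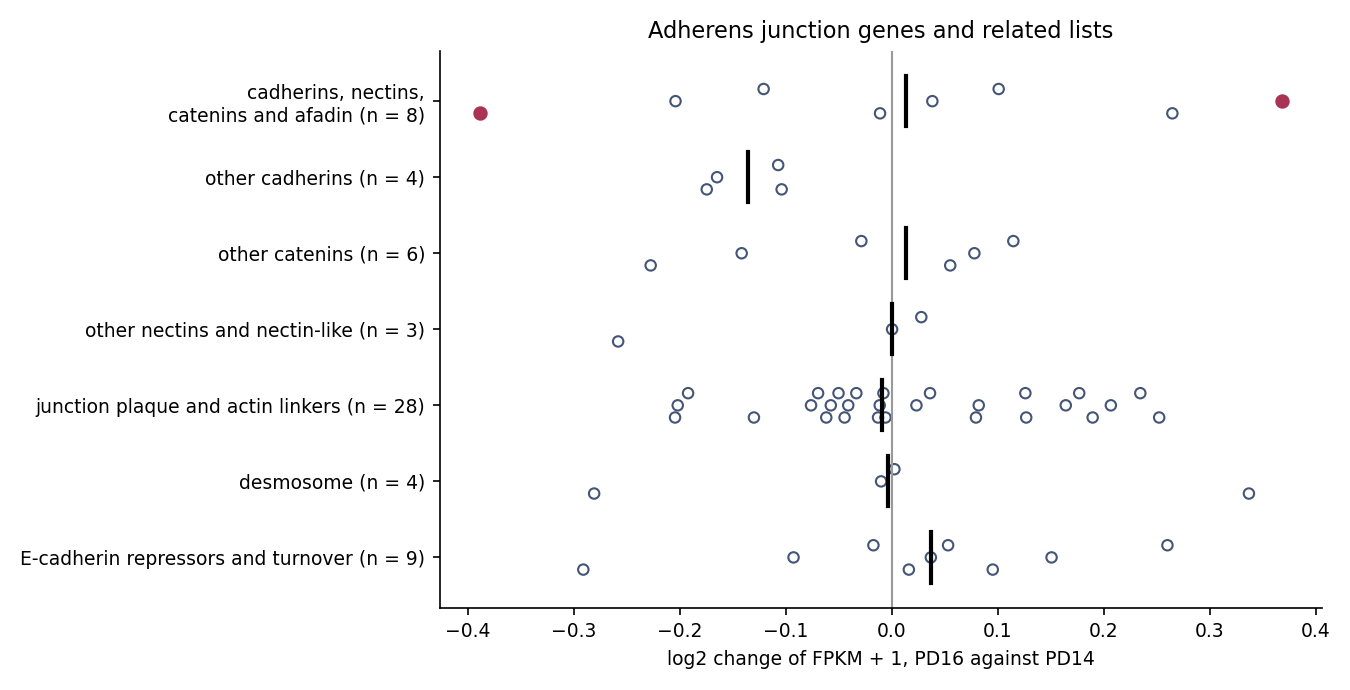
Log2 change of FPKM + 1 at PD16 against PD14 (horizontal axis) for the 8 genes and for the tested genes of the 6 related lists, 1 point per gene, with vertical offsets only to separate points. Filled points passed an adjusted p of 0.05 and the black bar is the median of a list; only Nectin2 at -0.39 and Nectin1 at 0.37 are filled.

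Markers of several cell types changed over the same days. At PD16 against PD14, 4 of 8 tested surface and oviduct epithelial markers fell: Krt8 (log2 change -0.48; limma adjusted p = 0.0222), Lgals7 (-0.49; 0.0239), Krt18 (-0.45; 0.0121) and Krt19 (-0.42; 0.0335). Of the other 4, Epcam had a log2 change of -0.26 (adjusted p = 0.0552), and the surface markers Upk3b, Upk1b and Msln had changes above 0, of 0.05, 0.09 and 0.11, with no call. The summed level of the 13 listed epithelial markers was 78.5 to 90.0 FPKM on PD14, 73.1 to 80.1 FPKM on PD15 and 60.4 to 66.7 FPKM on PD16, so it was lowest on the day when Nectin2 was lowest. Its part in the Nectin2 result was not tested. Of 10 granulosa markers, Amh rose (log2 change 0.47; adjusted p = 0.0223) and Cyp19a1, aromatase, fell (-0.84; 0.0316) on PD16, while the list's sum overlapped between days (3052 to 3716, 2891 to 3307 and 3020 to 3576 FPKM).

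Among 12 oocyte markers, Nlrp5 was higher on PD15 than on PD14 (log2 change 0.76; limma adjusted p = 0.0377) and lower on PD16 than on PD15 (-0.72; 0.0439), Zp2 was lower on PD16 than on PD15 (-0.61; 0.0427), and Bmp15 was higher on PD16 than on PD14 (0.39; 0.0331). Bmp15 went against the list there: 9 of the 12 markers had a lower mean log2 level on PD16 than on PD14, with a median log2 change of -0.25. Of the 12, 8 had an unadjusted p under 0.05, Bmp15 among them. The oocyte sum was 1470 to 1805 FPKM on PD14, 1875 to 1972 on PD15 and 1342 to 1454 on PD16. Its lowest day, PD16, was also that of the lowest epithelial sum and of the lowest mean of Cdh1, 2.69 ± 0.512 FPKM (SD, n = 3). The change of Cdh1 was not called, and the part of either sum in any of the 8 genes was not tested. The theca and interstitial, stromal and endothelial lists had no called gene in any comparison (7 tested in each), with unadjusted p under 0.05 for 2, 0 and 2 genes at PD16 against PD14. Their sums on PD14, PD15 and PD16 were 1609 to 2231, 1182 to 1756 and 1211 to 1622 FPKM for theca and interstitium. For stroma they were 604 to 694, 530 to 605 and 610 to 626 FPKM. For endothelium they were 66.3 to 76.8, 57.6 to 65.0 and 57.2 to 63.4 FPKM. Most of the theca and interstitial sum was Hsd3b1, with a mean of 1449 FPKM over the 9 libraries. At PD15 against PD14, 6, 5 and 6 of the 7 markers had a lower mean log2 level (median changes -0.41, -0.09 and -0.12). An unadjusted p under 0.05 was found there for 2, 2 and 1 of them. In the blood list Hba-a1, a globin gene with a near-identical copy, fell at PD15 against PD14 (-1.35; limma adjusted p = 0.0381), and the list's sum was 106 to 138, 48.7 to 65.2 and 63.4 to 116 FPKM. Other abundant markers, as means over the 9 libraries, were Ptch1 (43.1 FPKM, theca), Col1a2 (125 FPKM, stroma), Krt8 (19.8 FPKM) and Lgals7 (16.3 FPKM, epithelium), Cldn5 (28.1 FPKM) and Pecam1 (11.1 FPKM, endothelium), and Hba-a1 (61.1 FPKM) and Hbb-bs (22.3 FPKM, blood). No marker of any list was at 0 in all libraries.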

How the data were processed

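RNA from ovaries of 3 libraries per day was sequenced on an Illumina platform. The authors deposited 1 table per library of FPKM values (fragment counts scaled to exon length and library size). The submitters' processing notes name HISAT2 2.0.5 and build mm10 (the same assembly as GRCm38), and the counter, annotation and strand setting are not given in the sources used here. Symbols and identifiers came from the tables, and coordinates from GENCODE M21, which held 97.0% of the listed identifiers. Depth was recovered from the smallest steps of the values: with M21 lengths, 93.5% to 94.3% of low values were whole fragments within 0.02, giving about 20366700 to 28723300 fragments per library. Fragment numbers bear on counting error only.

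Genes with a mean of at least 1 FPKM on 1 or more days were kept. log2(FPKM + 1) was fitted with limma 3.58.1 (R 4.3.3), with an intensity trend, over all 9 libraries and 3 days with no covariate. P-values were two-sided and adjusted by the Benjamini-Hochberg method over 15495 genes, with 0.05 as the threshold. On this scale the fold change of a low gene is understated. The study describes the 3 ovaries of a day as independent, and the labels do not say whether they came from separate animals, so p-values measure the spread between these samples. The script was tested on simulated data. Exact permutation tests were used for single genes and for the ratios of Cdh1 to Cdh2 and of Nectin1 to Nectin2, the latter chosen after the values were seen.

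The 8 genes, the 6 related lists and the 7 cell type lists were chosen with earlier results of these data known. Named from each related list were genes called in any comparison and the 3 with the highest mean FPKM, and from each cell type list called genes (up to 5) and the 2 with the highest mean FPKM; for each called gene of the 8, the 5 tested genes most correlated with it were named. One gene that this rule names is not reported here. Alternatives were pseudocounts of 0.1 and 0.5, no filter and a stricter one of 5 FPKM, rescaling to TPM or by median ratio, limma without the trend or with robust variance estimates, only the 2 days compared, a replicate block, and leaving out each library.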

Additional observations from a re-analysis of the deposited data

How the results depend on the processing

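The direction of the 3 called changes of Nectin1 and Nectin2 held in all settings tried; genes of the other lists were fitted in the reported setting only. With no filter on low values, 0 of the 8 genes were called at PD15 against PD14 (Nectin1 log2 change 0.37, limma adjusted p = 0.0652) and 1 by the F test. With values rescaled to TPM, 0 were called at PD15 against PD14 (Nectin1 0.39, adjusted p = 0.0966), 1 at PD16 against PD14 (Nectin2; Nectin1 0.37, adjusted p = 0.0553) and 0 by the F test, and the Ctnnd1 change at PD15 against PD14 became -0.0104. Without the intensity trend the F test called 1. With only the 2 days compared, 0 were called at PD15 against PD14 (Nectin1 0.37, adjusted p = 0.0696). The replicate numbers did not pair the libraries, since the deviations of same-numbered libraries correlated at -0.21 to 0.16. With a replicate block, 0 were called at PD15 against PD14 (Nectin1 0.37, adjusted p = 0.0626) and 1 by the F test. Leaving out 1 library gave 0 to 1 called genes at PD15 against PD14, 0 to 2 at PD16 against PD14 and 0 to 2 by the F test.

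Across those fits Nectin1 ranged from 0.34 to 0.41 at PD15 against PD14 and from 0.33 to 0.40 at PD16 against PD14, and Nectin2 from -0.45 to -0.34 at PD16 against PD14. Changes near 0 that were never called crossed it: Cdh1 -0.00798 to 0.142, Ctnnd1 -0.0319 to 0.0266, Nectin3 -0.0119 to 0.0813 and the log2 Cdh1 to Cdh2 ratio -0.151 to 0.0512 at PD15 against PD14, Ctnna1 -0.0322 to 0.0125 at PD16 against PD14, and Nectin1 -0.0416 to 0.0108 and Afdn -0.0122 to 0.0862 at PD16 against PD15. Causes were not tested. With 3 libraries a day, an adjusted p close to 0.05 can change sides with a single library. Counting error, at most 6.54% for Cdh1 with its 234 to 432 fragments per library, was below the spread between libraries of that gene on each day.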
